A study of Mus musculus with 21 samples.

Results

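The 10 genes described here encode the enzymes that break tryptophan down through kynurenine and that make or spend the precursors of NAD in liver. They were chosen by name, as the rows of the count table whose Ensembl identifiers carry these symbols in GENCODE M21, and they are 10 of 46078 gene rows. All 10 passed the filter on low counts that left 14370 genes for testing. The libraries were bulk poly(A) RNA-seq of mouse liver, 21 in all, from a cross of genotype and diet. Its question was the hepatic response to loss of cysteine from both food and synthesis, with a tryptophan-free diet for the loss of another amino acid. For the genes described here that diet leaves out the pathway's own substrate, and the tryptophan left in the liver was not measured in these data.

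The genotypes were knockouts of *Cse*, which encodes cystathionine γ-lyase (gene symbol *Cth*) and is labelled cse in the titles (KO below), and animals with the label WT. Heterozygous animals are the comparison in the study's own account, so WT is used here as a label's name and does not state that both alleles were intact. The mice were on a mixed 129/C57BL/6 background and at least 9 weeks old. Per the study's methods they were male and calorie restricted, which holds for every group. By the study's account tissue was taken 2 days after the change to the test diets, which followed 3 days of restricted control diet. The diets were a defined amino acid diet (CTR, 5CC7), the same without cysteine (noCys) and the same without tryptophan (noTrp), and in each depleted diet the amino acids that remained were raised in proportion. On noTrp there were 2 WT and 5 KO libraries. On CTR there were 3 WT and 4 KO libraries. On noCys there were 4 WT libraries and 3 KO libraries, whose replicate numbers are 1, 3 and 4. Titles call the libraries biological replicates, and with 2 libraries in WT noTrp that arm was the least certain. Where 1 of these 2 is left out below, the library that remains is assumed to vary like those of the other groups.

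Total counts ran from 8889951 to 27230852 per library (median 13008968). *Cth* was at 108 to 452 CPM (a gene's share of its library's counts, scaled by library size and TMM factor) in the WT libraries and at 6.34 to 14.99 CPM in the KO libraries, with no overlap, so every library matched its genotype label. The ribosomal RNA gene CT010467.1 took 6.22% of the counts of WT CTR replicate 3 and at most 0.277% of any other library. All 7 hepatocyte markers in the table, *Alb* to *Hnf4a*, were at 546.5 CPM or more in every library, and the 6 kidney tubule markers were at 0.452 CPM or less. Within KO noCys replicate 1 stood apart from replicates 3 and 4, with a hepatocyte marker sum of 69610 CPM (of unscaled library totals) against 48110 and 51490, and calls that depend on it are given with and without it. These are bulk libraries, in which fewer cells of a type and less RNA per cell cannot be told apart.

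Tryptophan that is not built into protein is mostly broken down in the liver. *Tdo2* opens the indole ring, *Afmid* frees kynurenine, *Kmo* hydroxylates it and *Kynu* cleaves the product to hydroxyanthranilate, from which *Haao* makes an unstable semialdehyde. That semialdehyde either closes by itself to quinolinate, which *Qprt* turns into a precursor of NAD, or is taken by *Acmsd* towards glutarate and energy. *Nadsyn1* finishes NAD from the acid form, *Nampt* rebuilds NAD from nicotinamide, and *Nnmt* methylates nicotinamide and so removes it from reuse.

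The promoter windows of *Haao* and *Nampt* are shown because these genes moved with the tryptophan-free diet in opposite directions and, with *Nnmt*, are those the results turn on. RefSeq's table (GRCm38.p6) gave a window of 250 bases before to 50 after the annotated start for 8 of the 10 genes. *Haao* was at chr17:83846741-83847040 on the minus strand and *Nampt* at chr12:32820085-32820384 on the plus strand. Both are printed 5′ to 3′ in the direction of the gene, with matches of 6 short motifs on either strand in capitals.
Haao: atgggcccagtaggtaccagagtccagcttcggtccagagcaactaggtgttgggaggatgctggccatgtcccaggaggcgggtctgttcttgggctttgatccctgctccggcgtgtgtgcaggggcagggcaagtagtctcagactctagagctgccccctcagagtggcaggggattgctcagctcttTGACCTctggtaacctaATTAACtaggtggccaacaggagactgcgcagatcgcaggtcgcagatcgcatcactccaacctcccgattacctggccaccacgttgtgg
Nampt: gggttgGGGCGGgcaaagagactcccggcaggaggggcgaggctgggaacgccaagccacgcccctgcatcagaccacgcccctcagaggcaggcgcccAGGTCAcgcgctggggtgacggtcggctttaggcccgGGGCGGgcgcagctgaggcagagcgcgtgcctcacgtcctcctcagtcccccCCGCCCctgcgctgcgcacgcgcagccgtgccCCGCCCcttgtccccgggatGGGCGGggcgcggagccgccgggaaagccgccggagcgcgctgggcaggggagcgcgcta

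The nuclear receptor core, searched as AGGTCA, is in 16.3% of the 32851 windows of this length, and *Haao*, *Nampt*, *Tdo2* and *Acmsd* each held 1 match. The HNF1 core, searched as GTTAAT, is in 7.1% of windows and was found once, in *Haao*. The GC box, searched as GGGCGG, is in 35.7% of windows. It had 5 matches in *Nampt*, 2 in *Nadsyn1* and 1 in *Afmid*, and no match in *Haao*. The core of the antioxidant response element, searched as TGACNNNGC, is in 12.4% of windows and was found in *Tdo2* and *Qprt*. The E-box, searched as CACGTG, is in 7.15% of windows, and none of the 8 windows held it. The C/EBP-ATF element, searched as TGATGNAAT, is in 0.965% of windows and was likewise in none of the 8. *Kmo* held none of the 6 motifs, and no 2 matches overlapped in the sequences shown. These matches describe the letters only.

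Levels between genes are compared as CPM per kilobase of exon, averaged over the 21 libraries. *Tdo2*, the entry enzyme, stood highest at 470.2 CPM per kb, above 99.1% of the genes tested, and *Nnmt* followed at 167. *Haao* (85.9), *Qprt* (63.6) and *Kmo* (61.1) were close together, then came *Kynu* (21.7), *Nampt* (20.7) and *Acmsd* (14.2). *Nadsyn1* was at 9.0 and *Afmid* at 7.28, still above the median of 2.67 CPM per kb over all genes tested with a length. *Afmid* shares 1566 of its 3539 exon bases with *Gm20708* on the same strand, where reads cannot be assigned to 1 of the 2 genes. Over the other 1973 bases *Afmid* was at 13.1 CPM per kb, so its place relative to *Nadsyn1* depends on the bases counted. *Qprt* and *Acmsd*, which draw on the same semialdehyde, thus lay well apart, at 63.6 and 14.2.

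**Figure D1:**
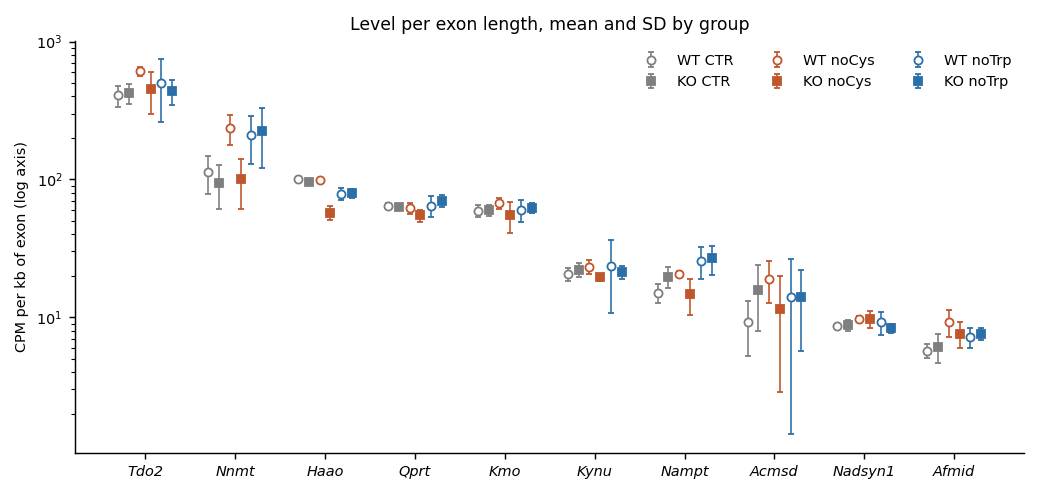
Level of each gene per exon length (CPM per kb, log axis) as the mean and SD of each of the 6 groups, ordered by the mean over groups. *Tdo2* lies near 470.2 CPM per kb and *Afmid*, divided by all its exon bases, near 7.28, and the order of genes is wider than the differences between groups for most of them.

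The genes also differed in how steady they were among animals of 1 group. The within-group SD of log2 CPM was 0.095 for *Haao*, lower than that of all but 2.7% of genes tested, and 0.127 for *Qprt* and 0.135 for *Nadsyn1*. It was 0.33 for *Tdo2*, 0.57 for *Nnmt* and 0.82 for *Acmsd*, whose spread exceeded that of 94.6% of genes (median of all genes 0.263). Every library held at least 1126 counts of *Nnmt* and at least 132 of *Acmsd*, a counting error of at most 2.98% and 8.7%. Over all libraries *Nnmt* spanned 6.08-fold and *Acmsd* 5.61-fold, and *Nadsyn1* 1.44-fold.

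**Figure D2:**
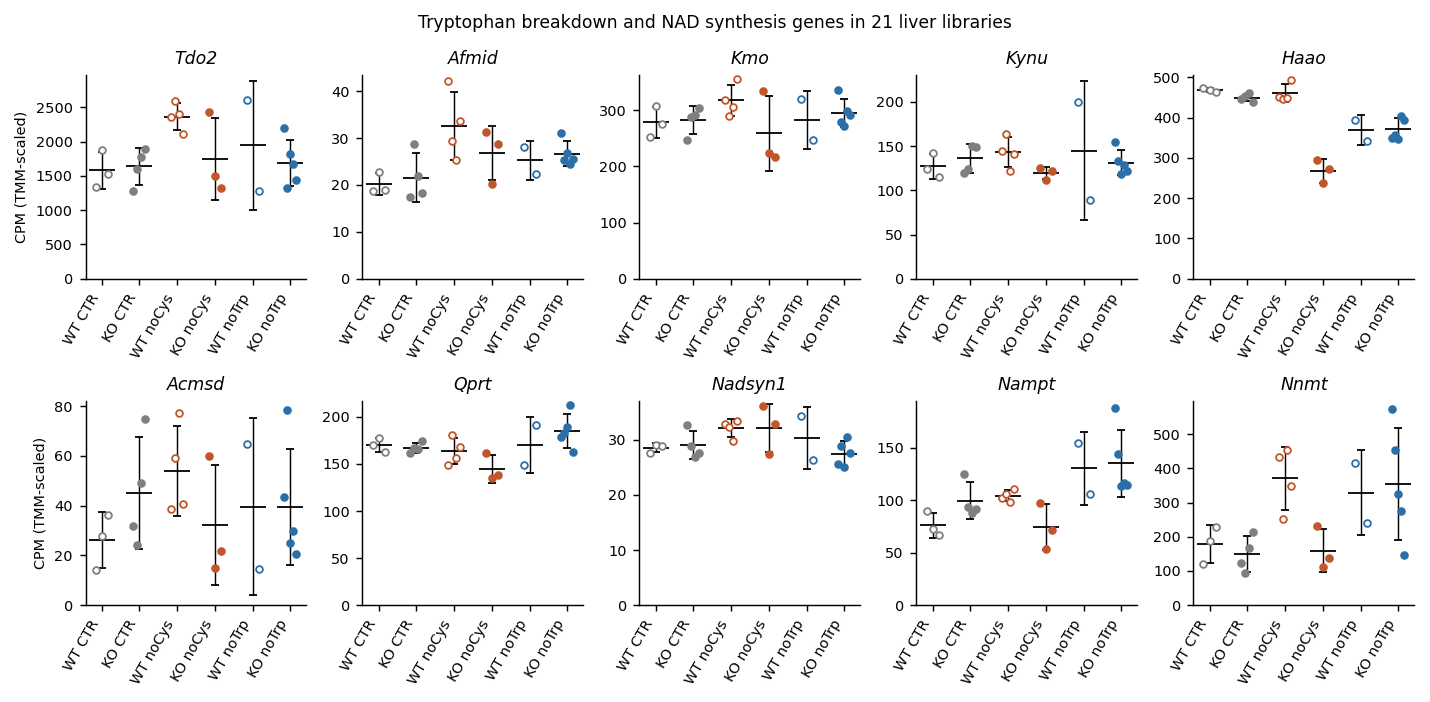
CPM after TMM scaling of the 10 genes in every library (points; open for WT, filled for KO; grey CTR, orange noCys, blue noTrp), with the mean and SD of each group in black. The KO noCys and noTrp libraries lie below the others for *Haao*, and the noTrp libraries lie mostly above the CTR libraries for *Nampt* and *Nnmt*.

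The first comparison asked what removing dietary tryptophan did to its own breakdown pathway. Averaged over the 2 genotypes with equal weight, edgeR called 3 of the 10 genes. *Nnmt* rose 2.1-fold, *Nampt* rose 1.53-fold, and *Haao* fell to 0.805 of its control level. DESeq2 called 3 and limma-voom 2, and with 1 library left out the count changed, as given by gene below. The enzymes ahead of *Haao* did not pass the test. *Tdo2* was at 0.17 on the log2 scale (adjusted p = 0.552), *Kmo* at 0.04 (0.825) and *Kynu* at 0.07 (0.781). *Afmid* was at 0.31 (0.151), with an interval of 0.02 to 0.60 and an unadjusted p of 0.036. Without KO CTR replicate 2 edgeR called it (0.40, adjusted p = 0.0479). Of all genes tested, 11.4% were called in this comparison, so 3 of 10 is to be read against that share. The median log2 fold change of the 10 genes was 0.12, beside 0.003 over all genes.

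*Haao* (ENSMUSG00000000673, GRCm38 chromosome 17, 83831156 to 83847963, minus strand) was at 474, 469 and 464 CPM in WT CTR. The WT noTrp libraries held 395 and 342 CPM of it. In KO CTR it was at 447, 453, 460 and 439.7, and in KO noTrp at 349.9, 356, 347, 405 and 395. Each noTrp library lay below each CTR library of either genotype. On the log2 scale it fell by 0.31 on average (SE 0.07, adjusted p = 0.00638), and the call held in all 21 alternative fits. Within 1 genotype the falls were of like size and did not pass the test, with -0.35 in WT (SE 0.11, adjusted p = 0.0905) and -0.28 in KO (SE 0.08, adjusted p = 0.0723).

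*Nampt* (ENSMUSG00000020572, chromosome 12, 32819545 to 32853349, plus strand), the salvage enzyme, was at 89.4, 72.4 and 66.5 CPM in WT CTR and at 155 and 106 in WT noTrp. The KO CTR libraries held 125, 93.8, 87.6 and 91.5 CPM, and the KO noTrp libraries 188, 144, 113, 116 and 114. The WT groups did not overlap, and in KO the first CTR library lay above 3 of the 5 noTrp libraries. The averaged rise was 0.61 (SE 0.15, adjusted p = 0.0110), and the call held in 20 of 21 alternatives, being lost without WT noTrp replicate 1 (0.46, adjusted p = 0.0977). In WT alone it was 0.78 (adjusted p = 0.0763), and in KO alone 0.44 (interval 0.08 to 0.81, adjusted p = 0.196). With 1 library left out the KO value ran from 0.29 to 0.57 and the WT value from 0.48 to 1.03. The highest WT value came without WT noTrp replicate 2, with 1 library in that arm and so with no spread of its own.

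*Nnmt* (ENSMUSG00000032271, chromosome 9, 48591877 to 48605153, minus strand) was at 119, 188 and 228 CPM in WT CTR and at 417 and 241 in WT noTrp, again without overlap. It was at 122, 94.3, 166 and 214 in KO CTR and at 574, 454, 325, 275 and 147 in KO noTrp, where the lowest library lay within the range of the controls. The averaged rise was 1.07 (SE 0.28, adjusted p = 0.0171). It was not called by limma-voom (adjusted p = 0.133), without WT CTR replicate 1 (0.96, adjusted p = 0.0522) or without WT noTrp replicate 1 (0.85, adjusted p = 0.111). In WT alone it was 0.88 (interval -0.04 to 1.80, adjusted p = 0.297), and from 0.44 to 1.23 with 1 library left out. In KO alone it was 1.25 (adjusted p = 0.0591). With 1 library left out the KO value ran from 1.01 to 1.48. It was called in 1 of these 9 fits, without KO noTrp replicate 5 (1.45, adjusted p = 0.0209).

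The remaining genes of the pathway overlapped between the diets. *Afmid* was at 0.31 (adjusted p = 0.151), *Qprt* at 0.07 (0.577), *Acmsd* at 0.21 (0.773, with an SE of 0.40) and *Nadsyn1* at 0.002 (0.992, interval -0.17 to 0.17). The interval of *Kmo* ran from -0.17 to 0.26, and that of *Qprt* from -0.09 to 0.24. The interval of *Acmsd* ran from -0.62 to 1.05, too wide to give a direction. Besides the bases shared with *Gm20708*, *Afmid* shares 83 exon bases with *Tk1* on the opposite strand, and *Acmsd* 94 with the antisense gene *2900009J06Rik*. Where counting ignored strand, reads there could not be assigned either.

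Taken within each genotype, edgeR called none of the 10 genes between noTrp and CTR, and 0 to 2 in WT and 0 to 1 in KO with 1 library left out. *Kynu* in WT turned with the library: it was at 0.66 (adjusted p = 0.0339) without WT noTrp replicate 2 and at -0.51 (adjusted p = 0.214) without replicate 1. In WT, 3.19% of all genes were called, 2 of the 10 and 2615 of all 14370 genes had an unadjusted p under 0.05, DESeq2 called 2 (*Haao* and *Nampt*) and limma-voom 0. All libraries of WT noTrp lay on 1 side of WT CTR for 3 of the 10 genes, a separation that 30.6% of all genes showed. In KO, 1.87% of all genes were called, 3 of the 10 and 2431 of all genes had an unadjusted p under 0.05, DESeq2 called 2 (*Haao* and *Nnmt*) and limma-voom 1 (*Haao*). The KO groups were apart for *Haao* only, beside 6.33% of all genes.

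Whether the genotype altered the response to the diet was tested directly. For none of the 10 genes was the difference between the KO and WT responses called by edgeR, DESeq2 or limma-voom, and 0% of all genes were called by edgeR (821 with an unadjusted p under 0.05, and 18 called by DESeq2). For *Haao* the difference was 0.07 with an interval of -0.22 to 0.35, and for *Nampt* -0.33 with an interval of -0.94 to 0.28. Between KO noTrp and WT noTrp no member was called by any of the 3 tools (0 with an unadjusted p under 0.05), beside 0.195% of all genes. There *Haao* stood at 0.01 (interval -0.20 to 0.22) and *Nnmt* at 0.11 (interval -0.75 to 0.97).

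The summed CPM of 12 leukocyte and Kupffer cell markers, of which 9 averaged at least 1 CPM, moved with the diet. It was 239.9 and 259 in WT noTrp and 182 to 281 in KO noTrp, against 96.7 to 175 in WT CTR and 100.5 to 234 in KO CTR. *Cd3e*, *Cd79a* and *S100a8* reached at most 1.46, 0.739 and 1.31 CPM in any library, and 4 of 10 tested markers, *Cd68*, *Clec4f*, *Cd5l* and *Csf1r*, were called higher in the averaged comparison. The sum of 6 endothelial markers was higher too, at 141 to 179.7 in WT noTrp and 127 to 176 in KO noTrp, against 90.4 to 134 in WT CTR and 89.5 to 143 in KO CTR, with *Lyve1* and *Pecam1* called. The sum of 6 stellate cell and fibroblast markers was 188 to 259.5 in WT noTrp and 187 to 236 in KO noTrp, against 268.5 to 341 in WT CTR and 196 to 385 in KO CTR, with *Col3a1*, *Lrat* and *Reln* called lower. Of 6 erythroid markers *Alas2* was called lower. The erythroid sum was at 112 to 214.5 in KO noTrp against 175 to 349.8 in KO CTR and at 223 to 379 in WT noTrp against 157 to 312 in WT CTR, lower by its median in KO and higher in WT, with overlap in both. All 6 had an unadjusted p under 0.05 in KO and 1 in WT, and 5 had one for the genotype difference, of which edgeR, DESeq2 and limma-voom called 0. None of 6 cholangiocyte markers was called by edgeR, DESeq2 or limma-voom (1 with an unadjusted p under 0.05). Mitochondrial genes took 3.7 and 3.89% of counts in WT noTrp and 3.41 to 4.79% in KO noTrp, against 6.51 to 7.51% in WT CTR and 4.495 to 7.29% in KO CTR. The part of these cells, and of the mitochondrial share, in the changes of *Nampt*, *Nnmt* and *Haao* was not tested. The summed CPM of the 7 hepatocyte markers was 69500 to 86910 in WT noTrp and 61650 to 82810 in KO noTrp, against 74690 to 93380 in WT CTR and 74720 to 81520 in KO CTR, with overlap in both genotypes. Of these 7, *Ttr* alone was called, with a fall of 0.49 on the log2 scale (adjusted p = 0.00179).

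**Figure D3:**
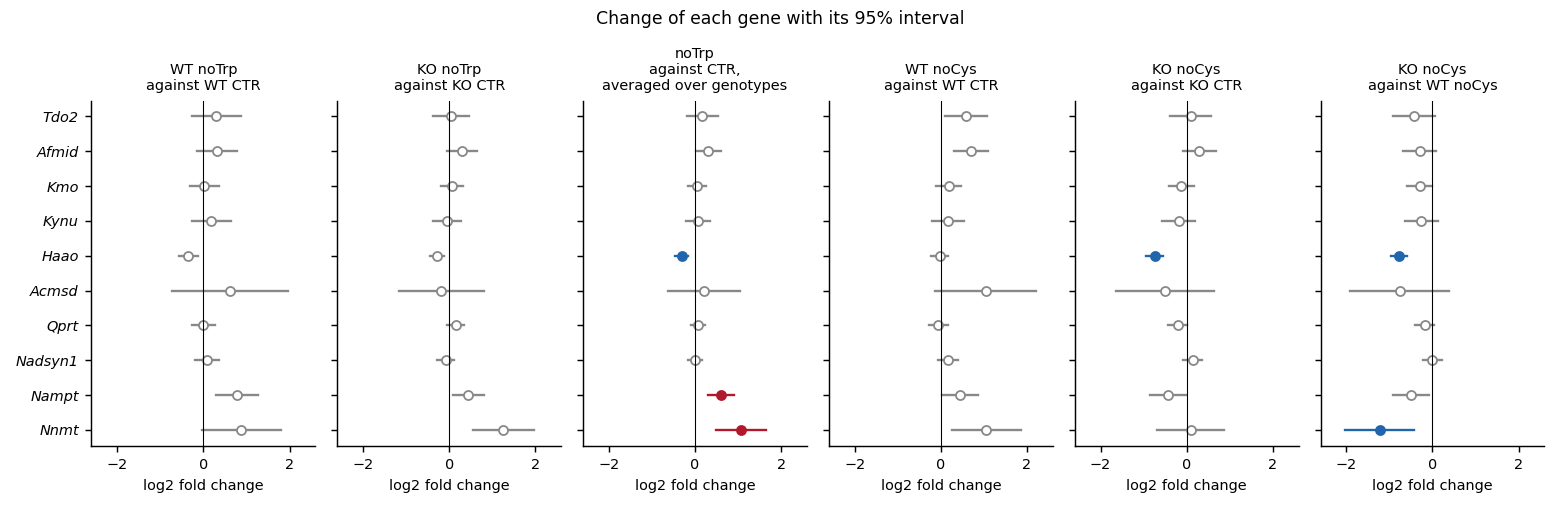
Log2 fold change of each gene (points) with its 95% interval (lines) in 6 comparisons; filled points passed an adjusted p of 0.05 in edgeR, red for higher and blue for lower. *Haao* lies below 0 in the 3 noTrp contrasts and in both KO noCys contrasts and at -0.03 in WT noCys against WT CTR.

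The cysteine-free diet left tryptophan in the food, and in KO it took away both supplies of cysteine. *Haao* fell in both comparisons of KO noCys, and edgeR called no other member in both. Limma-voom called *Nampt* in both as well (adjusted p = 0.0409 against KO CTR and 0.00647 against WT noCys), as did edgeR without KO noCys replicate 1. The CPM of *Haao* was 296, 237 and 273 in KO noCys, against 447, 453, 460 and 439.7 in KO CTR and 452, 447, 449 and 494 in WT noCys. Every KO noCys library lay below every other library of the series. The fall was 0.75 on the log2 scale against KO CTR (SE 0.09, adjusted p = 1.995e-05) and 0.78 against WT noCys (SE 0.09, adjusted p = 7.69e-06), to 0.597 and 0.583 of the level. These calls held in all 14 alternatives of each comparison, with falls of at least 0.57.

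Against KO CTR, 1 of the 10 genes was thus called, beside 20.2% of all genes, and the groups were apart for 1 of 10, beside 28.6% of all genes. The median of the 10 was -0.16, beside 0.004 over all genes. Against WT noCys, 2 were called, beside 28.2% of all genes, and 3 had groups that did not overlap, all lower in KO, beside 37.6% of all genes. The median of the 10 was -0.37, beside -0.02 over all genes. DESeq2 called 1 and 2 of the 10 in these comparisons. Limma-voom called 2 against KO CTR and 6 against WT noCys, *Tdo2*, *Kmo*, *Haao*, *Acmsd*, *Nampt* and *Nnmt*, where it called 5363 of all 14370 genes. With 1 library left out edgeR called 1 to 5 against WT noCys and 1 or 2 against KO CTR. The 5 were called without KO noCys replicate 1, where *Tdo2* (-0.745, adjusted p = 0.0276), *Kmo* (-0.53, adjusted p = 0.00525) and *Nampt* (-0.73, adjusted p = 0.0158) joined *Haao* and *Nnmt*. That library held 2434 CPM of *Tdo2* and 335 of *Kmo*, against 1499 and 225 in replicate 3 and 1319 and 216 in replicate 4.

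*Nnmt* was the second gene called against WT noCys. It was at 231, 110 and 137 CPM in KO noCys and at 432, 251, 454 and 348 in WT noCys, so that all KO libraries lay below all WT libraries. The difference was -1.22 (SE 0.39, adjusted p = 0.0230), and it was not called without WT noCys replicate 1 (-1.15) or 3 (-1.11) or without KO noCys replicate 3 (-1.015) or 4 (-1.127). Against KO CTR *Nnmt* stood at 0.10 (adjusted p = 0.891). *Nampt* was at 97.0, 53.8 and 71.9 CPM in KO noCys and at 102, 106, 97.8 and 110 in WT noCys, again apart, and its difference of -0.49 missed the threshold (adjusted p = 0.0714).

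In WT, removing cysteine gave no call among the 10 genes by edgeR, beside 0.661% of all genes, although 4 of the 10 had an unadjusted p under 0.05, as did 2000 of all 14370 genes. DESeq2 called 1 (*Afmid*) and limma-voom 2 (*Afmid* and *Tdo2*). In a fit of the compared groups alone, which called 396 of 12841 genes, edgeR called *Tdo2* (0.58, adjusted p = 0.0477) and *Nnmt* (1.06, adjusted p = 0.0484). Without a filter, where 269 of 26504 genes were called, it called *Afmid* (0.70, adjusted p = 0.0471). The values were mostly higher: for 6 of the 10 all WT noCys libraries lay above all WT CTR libraries, where 16.4% of all genes were apart in either direction. *Tdo2* was at 2356, 2585, 2395 and 2114 CPM in WT noCys and at 1332, 1877 and 1527 in WT CTR, a log2 fold change of 0.58 (adjusted p = 0.262). *Afmid* was at 42.2, 29.3, 25.3 and 33.6 against 18.7, 22.8 and 18.8 CPM, or 0.70 (adjusted p = 0.0888). *Nnmt*, at 1.06, had an adjusted p of 0.208. *Haao* was at -0.03 (interval -0.22 to 0.16).

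The response to the cysteine-free diet differed between the genotypes for *Haao*. The KO response was lower by 0.72 on the log2 scale (SE 0.13, adjusted p = 0.00276), and 7.44% of all genes were called in this test. The call held in all 21 alternatives. The other 9 genes did not pass it by edgeR, with *Nampt* at -0.88 (adjusted p = 0.0641). DESeq2 also called *Nampt*, and limma-voom *Nampt*, *Kmo* (-0.49) and *Acmsd* (-2.24). With 1 library left out edgeR called 1 to 3 of the 10, and without KO noCys replicate 1 these were *Haao*, *Nampt* (-1.12, adjusted p = 0.0173) and *Kmo* (-0.55, adjusted p = 0.0459). On the control diet the genotypes differed in none of the 10 genes by edgeR, DESeq2 or limma-voom (0 with an unadjusted p under 0.05), beside 0.32% of all genes. There *Haao* was at -0.06 (interval -0.25 to 0.13). Its KO CTR libraries lay just under all WT CTR libraries, a separation shown by 10.9% of all genes, but with library totals in place of TMM factors the fitted difference was 0.0.

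The hepatocyte marker sum moved with *Haao* in KO noCys. The 7 markers summed to 48110 to 69610 CPM there, below the 74720 to 81520 of KO CTR and the 89020 to 98170 of WT noCys, and 3 of the 7, *Alb*, *Ttr* and *Fgb*, were called lower in each of these comparisons. Their part in the fall of *Haao* was not tested. The leukocyte sum of KO noCys (119.5 to 161, median 149) overlapped that of KO CTR (100.5 to 234, median 121) and that of WT noCys (124 to 212, median 186.5). Other markers were lower in KO noCys too: 3 of 6 erythroid, 2 of 6 stellate, 1 of 6 cholangiocyte and 1 of 6 endothelial markers were called against KO CTR, and 3, 1, 2 and 2 in the same order against WT noCys. The cholangiocyte sum was 17.2 to 20.8 CPM, against 32.2 to 54.4 in WT noCys and 19.3 to 60.9 in KO CTR. Their part was not tested either.

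KO noTrp and KO noCys set the 2 deprived diets side by side in animals that cannot make cysteine. Of the 10 genes, 4 were higher without tryptophan, beside 13.9% of all genes called, and 3 had groups that were apart, beside 19.6% of all genes. *Haao* was higher by 0.47 (SE 0.09, adjusted p = 0.00186) and *Nampt* by 0.87 (SE 0.20, adjusted p = 0.00604). *Qprt*, which makes the NAD precursor from quinolinate, was at 179, 183, 189, 213 and 163 CPM in KO noTrp and at 162, 135 and 138 in KO noCys. The lowest KO noTrp library of *Qprt* was thus just above the highest KO noCys library, and the difference was 0.36 (SE 0.10, adjusted p = 0.0233). *Nnmt* was higher by 1.16 (SE 0.37, adjusted p = 0.0434). The call of *Haao* held in all 15 alternatives, that of *Nampt* in 14, that of *Qprt* in 9 and that of *Nnmt* in 8. Without KO noCys replicate 3 *Nampt* was at 0.68 (adjusted p = 0.0693), *Qprt* at 0.31 (0.145) and *Nnmt* at 0.95 (0.2205). *Qprt* was also lost without KO noCys replicate 4 (0.32) or KO noTrp replicate 4 (0.30), and *Nnmt* without KO noCys replicate 4 or KO noTrp replicate 1, 2 or 3. Without KO noCys replicate 1 *Kmo* was called as well (0.42, adjusted p = 0.0285). Markers of other cell types moved with this pair of diets. The leukocyte sum was 182 to 281 CPM in KO noTrp and 119.5 to 161 in KO noCys, and the endothelial sum 127 to 176 and 104 to 109, both apart. The cholangiocyte sum was 27.5 to 51.7 against 17.2 to 20.8, apart as well, and the hepatocyte sum (61650 to 82810 against 48110 to 69610) overlapped. The stellate sum (187 to 236 against 227 to 239.5) and the erythroid sum (112 to 214.5 against 138.5 to 177) overlapped too. Their medians were lower in KO noTrp, at 199 against 227 and 136 against 147.5. By edgeR 2 of 10 tested leukocyte markers (*Cd5l* and *Lyz2*), 3 of 6 endothelial (*Pecam1*, *Stab2* and *Kdr*), 1 of 6 cholangiocyte (*Spp1*) and 1 of 7 hepatocyte markers (*Ttr*) were called, all higher in KO noTrp. Their part in the differences of the 4 genes was not tested. In WT the same pair of diets gave no call among the 10 genes by any of the 3 tools (1 with an unadjusted p under 0.05), beside 0.16% of all genes, and *Haao* was at -0.32 (interval -0.54 to -0.10).

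The order of the 6 groups was thus clear for *Haao* alone. WT CTR (469 CPM on average), WT noCys (460.3) and KO CTR (449.9) stood highest, each overlapping the next. The noTrp groups, at 371 in KO and 369 in WT, lay together below them, and KO noCys lay at the bottom at 269. For *Nnmt* the order was WT noCys (371), KO noTrp (355), WT noTrp (329), WT CTR (178), KO noCys (159) and KO CTR (149). Among these neighbours the ranges were apart only between WT noTrp and WT CTR. For *Nampt* the order ran from KO noTrp (135) and WT noTrp (130.2) through WT noCys (104) and KO CTR (99.5) to WT CTR (76.1) and KO noCys (74.2), with overlap between all neighbours. *Tdo2*, *Afmid*, *Kmo*, *Kynu*, *Acmsd*, *Qprt* and *Nadsyn1* showed overlap between all neighbouring groups.

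Within the pathway the genes varied together in part. Over the deviations of the 21 libraries from their group means, Pearson's r of log2 CPM was 0.80 between *Tdo2* and *Kmo*, 0.72 between *Tdo2* and *Kynu*, 0.79 between *Acmsd* and *Nnmt* and 0.75 between *Haao* and *Nadsyn1*. *Qprt* stood apart, with r between -0.24 and 0.13 to every other member. All these values come from the same libraries and share their scaling. In the 2 libraries of WT noTrp the common variation was wide: replicate 1 held 2608 CPM of *Tdo2*, 200.1 of *Kynu* and 64.7 of *Acmsd*, and replicate 2 held 1282, 89.3 and 14.4. In KO noCys replicate 1 lay above replicates 3 and 4 for *Tdo2*, *Kmo* and *Acmsd*, with 59.9 CPM of *Acmsd* against 15.1 and 21.9, and close to them for *Kynu* (125 against 112 and 121).

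The genes whose pattern over the 21 libraries was most like a member were taken by Pearson's r of log2 CPM. For *Haao* these were *Pecr* (0.959), *Ghr* (0.953) and *Ttr* (0.95), the receptor for growth hormone and the plasma transthyretin gene among them. For *Nampt* the most alike was *Nudt19* (0.869). For *Nnmt* they were *Serinc3* (0.857), *Slain2* (0.854) and *Ipmk* (0.852). For *Tdo2* they were *Pptc7* (0.897), *Crp* (0.886) and *Atp1b1* (0.868), and for *Acmsd* *Etnk2* (0.894), *Mpzl2* (0.854) and *Ppargc1a* (0.845), the last a coactivator of fasting metabolism. For *Kmo* the most alike was the amino acid transporter *Slc38a4* (0.908), for *Kynu* *Mthfd1* (0.872), for *Afmid* *Morc3* (0.819), for *Qprt* *Lipe* (0.807) and for *Nadsyn1* *Cog2* (0.706).

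Genes around the pathway were followed by list. Without tryptophan, averaged over genotypes, *Slc25a47* and *Aox3* were the genes called in all 21 alternatives among these lists of tryptophan and NAD genes. *Slc25a47*, a carrier of the inner mitochondrial membrane that has been described to move NAD, rose by 0.68 (SE 0.10, adjusted p = 0.000451), and *Slc16a10*, an aromatic amino acid transporter, by 0.60 (adjusted p = 0.0155), which made 2 of the 6 transport genes tested, beside 11.4% of all genes called. The call of *Slc16a10* was lost without WT noTrp replicate 1 (0.27, adjusted p = 0.269) and by limma-voom. *Aox3*, an aldehyde oxidase of the kind that oxidises methylated nicotinamide, fell by 0.83 (SE 0.15, adjusted p = 0.00185), and *Aox1* was at -0.12 (adjusted p = 0.604). Within genotypes edgeR called both in WT and neither in KO. *Slc25a47* was at 0.95 in WT (adjusted p = 0.00506) and 0.41 in KO (adjusted p = 0.0851). *Aox3* was at -1.22 (adjusted p = 0.0124) and -0.44 (adjusted p = 0.193). Of the 6 transport genes DESeq2 called 2 in WT and 1 in KO, and limma-voom 0 and 1. Of the 2 aldehyde oxidases tested DESeq2 called 1 in WT and 0 in KO, and limma-voom 0 in both. The genotype difference was -0.54 for *Slc25a47* (unadjusted p = 0.0150) and 0.78 for *Aox3* (unadjusted p = 0.0147), with an adjusted p of 0.781 for each. Of 8 other tested genes of tryptophan breakdown only *Ddc*, which decarboxylates aromatic amino acids, was called, with -0.57 (adjusted p = 0.0267). Of 9 tested genes of other NAD synthesis steps *Naxd*, which repairs damaged NADH, was called at 0.25 (adjusted p = 0.0302), of 14 NAD-consuming enzymes *Sirt1* at 0.39 (adjusted p = 0.0419), and of 4 enzymes beyond *Acmsd* *Gcdh* at 0.23 (adjusted p = 0.0499). These calls were less firm: of 21 alternatives, 16 called *Ddc*, 12 *Naxd*, 8 *Sirt1* and 4 *Gcdh*. The tryptophanyl-tRNA synthetases stood at 0.27 (*Wars*, adjusted p = 0.106) and -0.05 (*Wars2*, adjusted p = 0.879).

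Among 32 tested genes that break down other amino acids, 5 rose and 1 fell on the tryptophan-free diet, beside the same 11.4% of all genes, with a median of 0.11. The aminotransferases *Got1* (1.18, adjusted p = 0.00883) and *Gpt* (0.48, adjusted p = 0.000203) rose, and *Amt* of the glycine cleavage system fell by 0.55 (adjusted p = 0.000178). *Gpt* and *Amt* were called in all 21 alternatives, and *Got1* in 19, at 0.58 (adjusted p = 0.189) without WT noTrp replicate 1. Because *Tdo2* is a glucocorticoid-induced gene, known targets of this hormone were listed too. Of 10 such genes 4 rose and none fell by edgeR, beside 11.4% of all genes called, among them *Igfbp1* (2.35, adjusted p = 0.00694) and *Fkbp5* (1.02, adjusted p = 0.00458), while *Tdo2* stood at 0.17. *Fkbp5* was called in all 21 alternatives, and *Igfbp1* in 19, at 1.16 (adjusted p = 0.171) without WT noTrp replicate 1. *Mt2* was called in 11 and *Dusp1* in 7, and limma-voom called 1 of the 10 genes. The rises lay mostly in the 2 libraries of WT noTrp: 8 of the 10 had an unadjusted p under 0.05 in WT (3 called) and 1 in KO (0 called by edgeR, DESeq2 or limma-voom). *Igfbp1* was at 3.87 in WT and 0.84 in KO (adjusted p = 0.515), and *Fkbp5* at 1.56 and 0.48 (adjusted p = 0.340). *Dusp1*, at 0.93 on average, was at 2.52 in WT (adjusted p = 0.0103) and at -0.65 in KO (SE 0.36, adjusted p = 0.365), a genotype difference of -3.17 (unadjusted p = 3.67e-05, adjusted p = 0.332). The list was counted in other comparisons with WT CTR too. In WT noCys against the same WT CTR libraries 8 of the 10 also had an unadjusted p under 0.05 (2 called by edgeR, 5 by DESeq2 and 7 by limma-voom), and in KO CTR against WT CTR 5 of the 10 (0, 1 and 1 called). In the test of the genotype difference 7 of the 10 had an unadjusted p under 0.05, and edgeR called 0, DESeq2 1 and limma-voom 0. Of 5 tested targets of the aryl hydrocarbon receptor, which binds tryptophan metabolites, edgeR, DESeq2 and limma-voom each called 0 in this comparison (3 with an unadjusted p under 0.05), with a median of -0.22. The clock genes *Nr1d1* (-1.14, adjusted p = 0.00564) and *Clock* (-0.42, adjusted p = 0.00845) fell and *Cry1* (0.67, adjusted p = 0.0176) rose, 3 of 12 clock genes tested beside 11.4% of all genes. *Nr1d1* and *Clock* were called in all 21 alternatives and *Cry1* in 17, being lost by limma-voom, in a fit of the compared groups alone, without WT CTR replicate 1 (0.59) and without WT noTrp replicate 1 (0.28, adjusted p = 0.314). The part of sampling time was not tested.

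**Figure D4:**
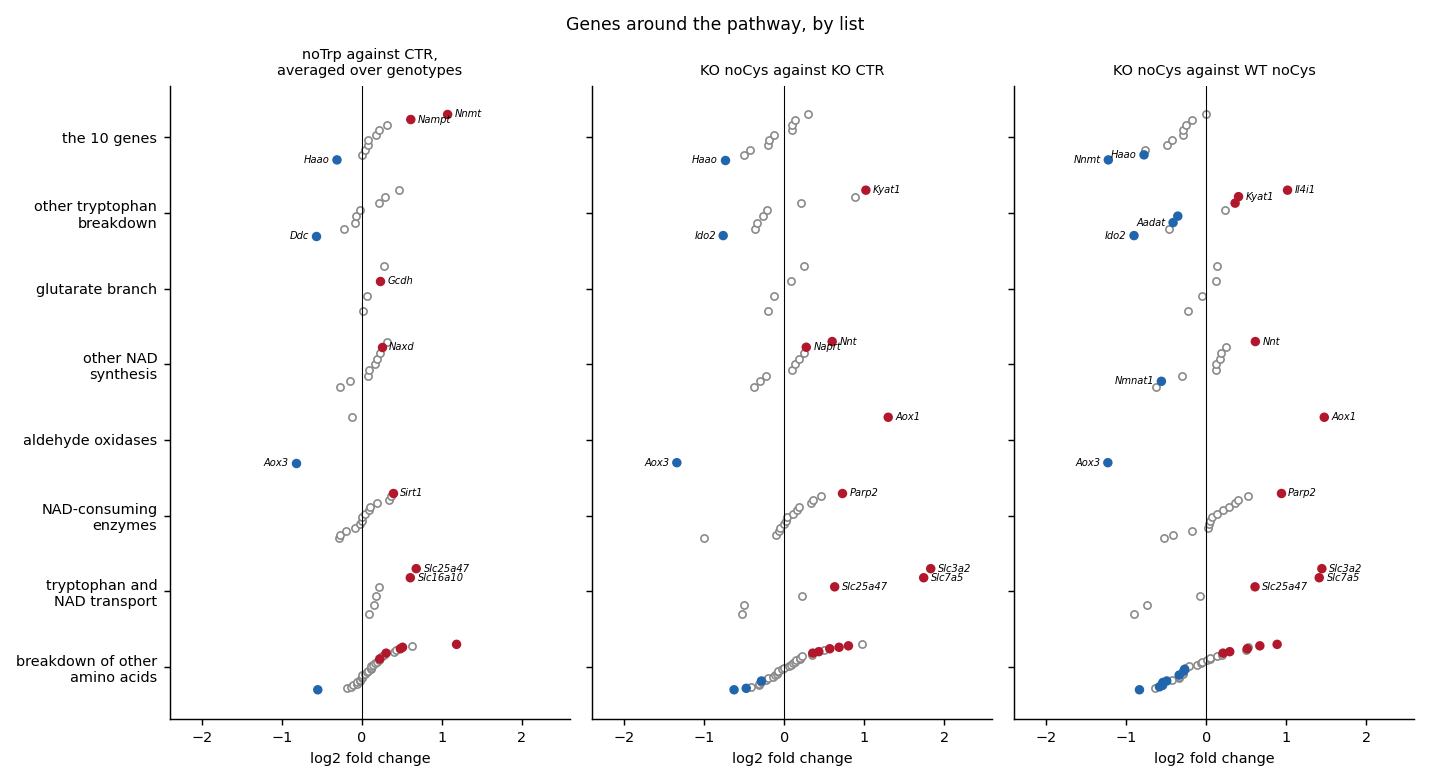
Log2 fold change of every tested gene of 8 lists in 3 comparisons; filled points passed an adjusted p of 0.05 in edgeR, red for higher and blue for lower, and up to 4 called genes of a list are named except in the list of other amino acids. *Aox3* lies at -0.83, -1.34 and -1.23 from left to right, and *Aox1* at -0.12, 1.3 and 1.47.

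In KO noCys these lists were compared with both KO CTR and WT noCys. Against KO CTR, *Aox1* rose by 1.3 (SE 0.18, adjusted p = 5.87e-05) while its paralog *Aox3* fell by 1.34 (SE 0.20, adjusted p = 0.000135), from 34.7 to 85.7 and from 197 to 77.7 CPM on average. Reads of the 2 paralogs were not tested for sharing. *Slc25a47* rose by 0.63 (adjusted p = 0.00288), from 852 to 1319 CPM. The amino acid exchanger subunits *Slc3a2* (1.83, adjusted p = 8.89e-06) and *Slc7a5* (1.74, adjusted p = 0.00547) rose as well, which made 3 of 6 transport genes, beside 20.2% of all genes called. *Kyat1*, a kynurenine aminotransferase that also cleaves cysteine conjugates, rose by 1.02 (SE 0.14, adjusted p = 6.68e-05) from 118 to 238 CPM, and *Ido2*, the liver's second dioxygenase for tryptophan, fell by 0.76 (adjusted p = 0.0261). *Nnt* (0.60, adjusted p = 0.00339), *Naprt* (0.28, adjusted p = 0.0298), *Parp2* (0.72, adjusted p = 0.0039) and the synthetase *Wars* (0.44, adjusted p = 0.0327) also rose. Of these, *Kyat1*, *Nnt*, *Parp2*, *Slc25a47*, *Slc3a2* and both aldehyde oxidases were called in all 14 alternatives, *Ido2* in 11, *Naprt* and *Wars* in 7, and *Slc7a5* in 13, being lost without KO noCys replicate 3 (1.015, adjusted p = 0.124). *Ido2* was lost without KO noCys replicate 3, without KO CTR replicate 4 and with the replicate block.

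Against WT noCys, 3 of the 8 other genes of tryptophan breakdown rose and 3 fell, beside 28.2% of all genes called, led by *Il4i1* (1.02), *Ido2* (-0.90), *Aadat* (-0.42) and *Kyat1* (0.40), called in 9, 13, 5 and 7 of 14 alternatives. *Nmnat1*, which assembles NAD in the nucleus, was at -0.56 (adjusted p = 0.0018), and *Nnt* at 0.61 (adjusted p = 0.00195). Between KO noTrp and KO noCys the aldehyde oxidases again ran apart, with *Aox1* at -1.12 (adjusted p = 0.00028) and *Aox3* at 0.91 (adjusted p = 0.00441), and *Kyat1* was at -0.88 (adjusted p = 0.000342). Of 5 tested targets of the aryl hydrocarbon receptor, *Cyp1a2* (1.17, adjusted p = 0.00149) and *Nqo1* (1.91, adjusted p = 1.78e-06), the latter also a gene of the oxidative stress response, were called in KO noCys against KO CTR, beside 20.2% of all genes.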

How the data were processed

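Liver poly(A) RNA of 21 mice was compared over 6 groups taken from the sample titles. The deposited file was 1 table of raw gene counts, which the authors made with HISAT2 2.1.0 and HTSeq 0.11.0 on GRCm38. The annotation release and the strand setting are not given in the sources used here. 1 column matched no sample and was not used, and 935 of 46078 identifiers were not in GENCODE M21, which gave symbols and lengths (0.071% of counts).

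Genes were kept by filterByExpr (minimum count 10, minimum total 15), which left 14370 of 26504 with any count. Counts were scaled by TMM (factors 0.883 to 1.141) and tested with edgeR 4.0.16 in R 4.3.3 by the two-sided quasi-likelihood F-test, in a one-way model over all 21 libraries. Adjusted p is Benjamini-Hochberg's over all genes tested, and values under 0.05 were called. Differences are log2 fold changes with their SE or 95% interval. CPM are TMM-scaled, and marker sums use unscaled totals. P-values set the difference between groups against a spread between libraries that was estimated over all 6 groups. The spread used for WT noTrp thus rests largely on the other groups. Per-library counts of the 10 genes were at least 132, and intervals of counting error do not cover variation between animals.

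Alternatives were DESeq2 1.42.0, limma 3.58.1 voom with quality weights, RLE factors, library totals alone, no filter, the compared groups alone, a replicate block and each library left out, and they were also run for the genes named from lists, a choice made after seeing the data. The steps were tested on simulated data. The 10 genes and all lists were chosen with earlier results of these data known. All 10 genes were named, up to 4 called genes per list and comparison with the largest change, and for likeness the 3 genes of highest r with a mean log2 CPM over 2. Some genes that this rule takes are not reported here. Promoter windows came from RefSeq, by RefSeq's start sites, which can differ from the outermost start in GENCODE.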

Additional observations from a re-analysis of the deposited data

Results flagged for a closer look

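In 30 groups of 4 or 5 libraries the highest or lowest value of a gene was compared with its nearest neighbour, a test that chance passes in about 1 of 20 groups, and 2 values stood out. *Haao* in WT noCys replicate 4 was at 494.2 CPM, above the 446.8 to 451.9 CPM of the other libraries of its group. *Nampt* in KO CTR replicate 1 was at 125.1 CPM, above the 87.56 to 93.82 CPM of the other libraries. The response of *Haao* to the cysteine-free diet differed between the genotypes by -0.718 on the log2 scale (adjusted p = 0.00276), and without any single library it stayed between -0.79 and -0.64, called each time.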

How the results depend on the processing

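Of 1890 values of the 10 genes under an alternative, 1825 kept their side of the threshold, 43 passed it where the reported value did not, 22 lost it, and no called value changed sign. The sign was compared only where 1 of the fits called the gene, and 125 values of genes called in neither fit differed in sign. The number of genes called moved more. For WT noTrp against WT CTR (459) it was 796 by DESeq2, 32 by limma-voom, 3 in a fit of the compared groups and 99 to 728 with 1 library left out. For KO noTrp against KO CTR (269) it was 580, 610, 136 and 105 to 447 in the same order. Averaged over genotypes (1640) limma-voom called 764, and 919 to 1803 were called with 1 library left out. For KO against WT it was, on noTrp (28), 123 by DESeq2, 6 by limma-voom, 101 without a filter, 4 in the compared groups and 14 to 230 with 1 library left out, and, on CTR (46), 125, 86, 154, 6 and 9 to 53. For WT noCys against WT CTR (95) it was 307, 533, 269, 396 and 1 to 53 in that order, and for WT noTrp against WT noCys (23) 143, 0, 50, 0 and 9 to 64. For KO noTrp against KO noCys (2000) limma-voom called 3204, with 570 to 2124 when 1 library was left out. With 1 library left out, KO noCys against WT noCys (4055) gave 2358 to 3895 and against KO CTR (2906) 1379 to 2979. The genotype difference in the tryptophan response (0) gave 18 by DESeq2, 10 without a filter and 0 to 67, and that in the cysteine response (1069) 2179 by limma-voom and 430 to 1399. The causes were not tested.

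With the replicate block, 191 genes were called for WT noTrp against WT CTR, 10 for KO CTR against WT CTR, 14 for WT noCys against WT CTR and 1302 for KO noTrp against KO noCys. Deviations from group means correlated at -0.341 to 0.343 between same-numbered libraries (median -0.03, 41 pairs). Between libraries of other numbers they correlated at -0.37 to 0.234 (median 0.007). In such small groups the deviations within a group depend on each other, so these values neither show nor exclude pairing by replicate number. With the block every call among the 10 genes was kept, and *Nampt* was also called in KO noTrp against KO CTR, in both KO noCys comparisons and in the cysteine response, and *Nnmt* in KO noTrp against KO CTR.

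Scaling by library totals alone moved the median of all genes from -0.015 to 0.2 in KO noCys against WT noCys, from 0.004 to 0.132 against KO CTR and from 0.004 to 0.159 in the difference of cysteine responses. The share of called genes that were higher rose from 52.5% to 80%, from 52.6% to 73.7% and from 47.9% to 72.6% in these. It rose from 51.5% to 72.8% for noTrp averaged over genotypes, from 53.2% to 78% in WT, from 41.6% to 55.5% in KO, from 21.7% to 36.6% for KO CTR against WT CTR and from 47.8% to 77.8% for WT noTrp against WT noCys (median of all genes 0.002 to 0.117), and fell from 48.5% to 31.7% for KO noTrp against KO noCys. *Haao* was then at -0.57, -0.63, -0.57 and -0.24, still called in each. *Qprt* in KO noTrp against KO noCys was no longer called (0.29, adjusted p = 0.0901). Only 2 libraries in WT noTrp limit what that arm can show.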
